A study of Bos taurus with 2 samples.

Results

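The 8 genes described here, HMGCS1, SQLE, IDI1, FDPS, FDFT1, INSIG1, SREBF2 and LSS, belong to the cholesterol synthesis pathway of bovine satellite cells. They were taken by name from a list of 21867 genes in the reference, of which 16816 were detected. HMGCS1, IDI1, FDPS, FDFT1, SQLE and LSS are enzymes of the pathway, whereas SREBF2 and INSIG1 regulate it. None of the 8 genes takes up cholesterol, so uptake was followed through a separate list of 9 measured genes of lipoprotein uptake and lysosomal release. All 8 had a row under their symbol in the deposited gene list.

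Animal cells make cholesterol from acetyl-CoA through mevalonate, the isoprenoid diphosphates and squalene, and they also take it up from lipoproteins. SREBF2 encodes SREBP2, a transcription factor held in the endoplasmic reticulum by INSIG proteins when sterols are abundant and released by way of SCAP when sterols are scarce. SREBP2 then activates the genes of the synthesis enzymes and INSIG1. In muscle as elsewhere, cholesterol is a component of the membranes that myoblasts join when they fuse.

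The cells were satellite cells, the stem cells of skeletal muscle, from the longissimus muscle of 1 male Holstein calf aged 2 weeks, grown without further treatment for 1 week in growth medium with 10% fetal bovine serum. They made up 1 group, cultured satellite cells, from which 2 single-cell RNA sequencing libraries were prepared, called library 1 and library 2 below. Each library counts RNA molecules by unique molecular identifiers (UMIs) in single cells. The serum is a source of lipoprotein cholesterol in general, and its lipid content was not measured.

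Library 1 held 9939 cells with 145631299 UMIs and library 2 held 9157 cells with 137818568 UMIs. The 15 cell clusters are those of the authors, and the cluster of every cell was deduced exactly from the deposited cluster averages. Because both libraries came from the same culture, the spread between them is technical, and all p-values below measure a difference against that spread alone, not against the spread between animals. The clusters were made from the same counts that were then compared, so a p-value is not independent evidence that clusters differ. The libraries shared 27 cell barcodes. The median UMIs per cell was 12929 or more in 10 clusters, 5398.5 in cluster 10, and 1389, 1631, 2513.5 and 647 in clusters 7, 13, 14 and 15. PAX7, the defining marker of satellite cells, was at or below 0.0119 UMIs per 10000 UMIs in every cluster, whereas the myoblast marker MYOD1 reached 6.75.

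Levels below are UMIs of a gene per 10000 UMIs, computed from the cells of a cluster in each library. Summed over the 8 genes, cluster 3 had the highest level, at 13.8 in library 1 and 13.7 in library 2. Clusters 6, 7 and 11 came next, at 13.1 and 12.9, at 12.4 and 12.3, and at 12.4 and 12.1. The lowest level was in cluster 8, at 5.12 and 5.24, after cluster 9 at 6.03 and 5.66 and cluster 4 at 6.35 and 6.27. The mean level of cluster 3 was 2.66 times that of cluster 8. Of the 14 pairs of neighbours in the order of clusters, 10 did not overlap between libraries, and clusters 7 and 11, 15 and 2, 5 and 14, and 14 and 13 did.

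**Figure D1:**
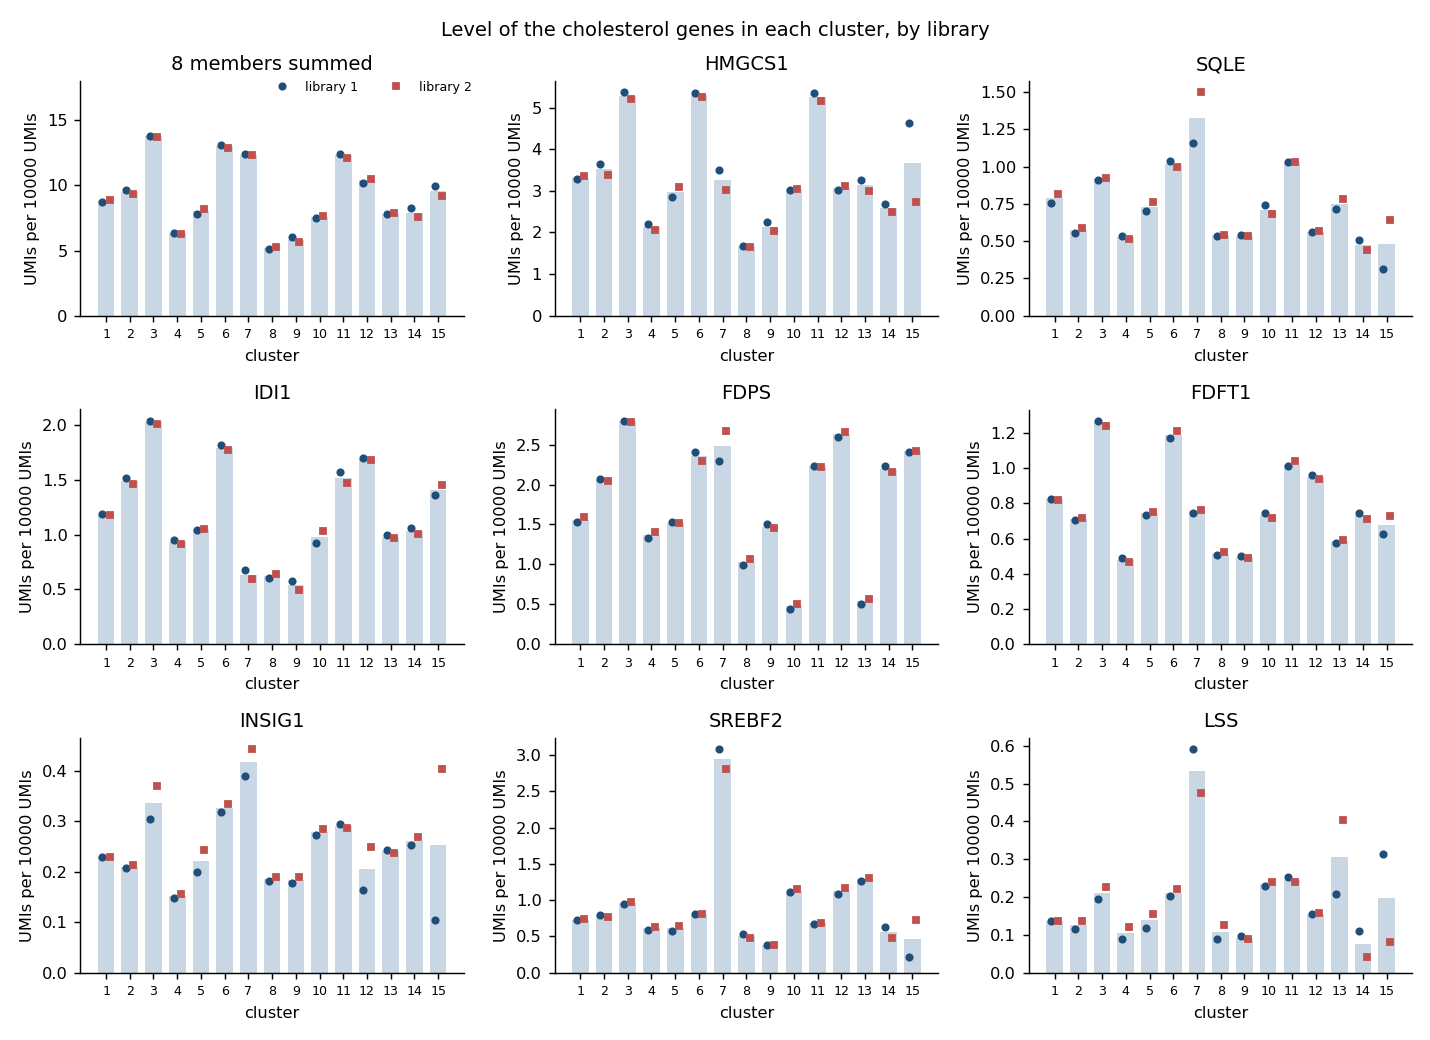
UMIs per 10000 UMIs of the 8 members summed and of each member in the 15 clusters. Bars are the mean of both libraries, circles library 1 and squares library 2. The summed level was highest in cluster 3 (13.8 and 13.7) and lowest in cluster 8 (5.12 and 5.24).

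HMGCS1, the synthase that makes HMG-CoA early in the pathway, was at 5.37 and 5.21 in cluster 3, 5.34 and 5.26 in cluster 6, and 5.35 and 5.16 in cluster 11. These 3 clusters overlapped one another and lay above all others in both libraries. It was lowest in cluster 8, at 1.67 and 1.66. IDI1, which interconverts the isoprenoid units that are joined into longer chains, was highest in cluster 3, at 2.04 and 2.01, and lowest in cluster 9, at 0.580 and 0.497. FDPS, which makes farnesyl diphosphate, had its highest level in cluster 3 as well, at 2.80 and 2.78. FDPS was lowest in cluster 10, at 0.443 and 0.509, and in cluster 13, at 0.506 and 0.569, and was at or above 0.998 in every other cluster and library. Its low level thus separated clusters 10 and 13 from the rest, which the other 7 genes did not do.

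FDFT1, the squalene synthase, commits farnesyl diphosphate to sterols, and its level ran from 1.27 and 1.24 in cluster 3 to 0.491 and 0.467 in cluster 4. SQLE, the squalene epoxidase, was at 1.16 and 1.5 in cluster 7, at 1.03 in both libraries in cluster 11, and at 1.04 and 0.996 in cluster 6. The libraries of cluster 7 differed more in SQLE than clusters 11 and 6 did from each other. LSS, which closes the ring to form lanosterol, was at 0.591 and 0.476 in cluster 7 and from 0.0402 to 0.403 elsewhere. In LSS, 12 of the 14 neighbouring pairs of clusters overlapped, so its order resolves little.

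SREBF2 had its highest level in cluster 7, at 3.08 and 2.81, and its lowest mean in cluster 9, at 0.378 and 0.380. Of the clusters with a median of at least 10000 UMIs per cell, SREBF2 was highest in cluster 12, at 1.09 and 1.16. INSIG1, which retains SREBP2 in the endoplasmic reticulum and is itself an SREBP2 target, had its lowest mean in cluster 4, at 0.149 and 0.155, and its highest in cluster 7, at 0.390 and 0.443. Over the 15 clusters, the highest correlation of 2 members was between HMGCS1 and FDFT1 (Pearson r = 0.882, n = 15 clusters of the same 2 libraries), and the lowest was between FDPS and LSS (r = -0.039). Over the 10 clusters with a median of at least 10000 UMIs per cell, these values were 0.929 and 0.776, and the lowest was 0.365 for SQLE and SREBF2.

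Each cluster was then compared with all other cells, using the UMIs summed per library (2 sums against 2) and the quasi-likelihood test of edgeR, with p-values adjusted by Benjamini-Hochberg over all genes tested. The call threshold was an adjusted p of 0.05, and fold changes below are on the log2 scale. Each count of 0 calls in the fit just described was also 0 at an unadjusted p under 0.05 and by DESeq2, except that LBR was lower in cluster 3 than in cluster 1 at an unadjusted p. The median log2 fold change of all genes tested lay between -0.12 and 0.05 in the comparisons below.

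Cluster 3 was the myogenin cluster with the most cells, with MYOG at 6.68 UMIs per 10000 UMIs, and it expressed the 8 cholesterol genes at higher levels than the other cells. All 8 of 8 were called higher, beside 24.5% of the 13082 genes tested. The log2 fold change was 0.90 for IDI1, 0.87 for FDFT1, 0.83 for HMGCS1, 0.82 for FDPS, 0.71 for INSIG1, 0.65 for LSS, 0.55 for SREBF2 and 0.52 for SQLE. Their standard errors lay between 0.0419 and 0.0851, and adjusted p-values by edgeR's quasi-likelihood test were between 4.1e-05 and 0.00147. The median over the 8 genes was 0.77.

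Most other enzymes of the synthesis list were also higher. Of the 15 other enzymes, 11 were called higher and 1 lower in cluster 3, with 25.4% of all genes tested called lower, and with the library as a block 2 were called lower. The largest increases were in TM7SF2 (1.57), a sterol reductase, CYP51A1 (0.90), the lanosterol demethylase, MSMO1 (0.83), a sterol methyl oxidase, and MVD (0.70), which makes isopentenyl diphosphate. The enzyme called lower was LBR (-1.45), a sterol reductase that is also a protein of the nuclear envelope. Of the 9 uptake and lysosomal genes, 1 was called higher, NPC1 (0.80), which exports cholesterol from lysosomes, and 5 were called lower, with the largest decrease in the lipoprotein receptor VLDLR (-1.0). Without TMM, log2 fold changes in this comparison were shifted by a median of -0.13 and all 8 members were still called higher.

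Cluster 6 and cluster 11 had the highest levels of S phase genes, at 22.5 and 22.9 for the 12 genes summed, and both had raised cholesterol genes. In cluster 6, all 8 genes were called higher, beside 10.6% of the 13064 genes tested, with log2 fold changes from 0.17 for SREBF2 to 0.73 for HMGCS1 and a median of 0.57. SREBF2 had an adjusted p of 0.0467 by edgeR's quasi-likelihood test, and its call was lost without TMM (log2 fold change 0.13), without the filter on low counts (0.14), when doublets were left out (0.11) and with the other clusters weighted equally (0.10). In Leiden clusters made without cholesterol genes its value was -0.06. The Leiden cluster matched to cluster 6 held 2841 cells, against 1575 in cluster 6. Its Jaccard index, the cells shared as a fraction of the cells in either, was 0.389, so it was largely a different set of cells. Among the other 15 enzymes, 12 were called higher and 1, TM7SF2 (-0.53), lower, where 9.48% of all genes were lower. With the other clusters weighted equally, TM7SF2 changed sign (0.27) and 0 of these enzymes were lower by edgeR. MVD (0.72), DHCR7 (0.68) and ACAT2 (0.62) were among the largest increases. Scrublet called 17% of the cells of cluster 6 doublets, the highest share of the 15 clusters.

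In cluster 11, 7 of the 8 genes were called higher, beside 12.8% of the 13067 genes tested, and SREBF2 was called lower (-0.19), as were 13.7% of all genes. The median of the 8 was 0.28, and LSS (0.66), HMGCS1 (0.58) and SQLE (0.48) had the largest increases. IDI1 (0.20), FDPS (0.22), INSIG1 (0.25) and FDFT1 (0.30) rose less. INSIG1 was close to the threshold, with an adjusted p of 0.0487 by edgeR's quasi-likelihood test. Of the 15 other enzymes, 11 were called higher and 1 lower. Clusters 6 and 11 differed in MYOD1, at 5.75 and 1.35 UMIs per 10000 UMIs, while their summed member levels were 13.1 and 12.9 in cluster 6 and 12.4 and 12.1 in cluster 11. The S phase genes rose in both clusters, and their part in the result was not tested.

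**Figure D2:**
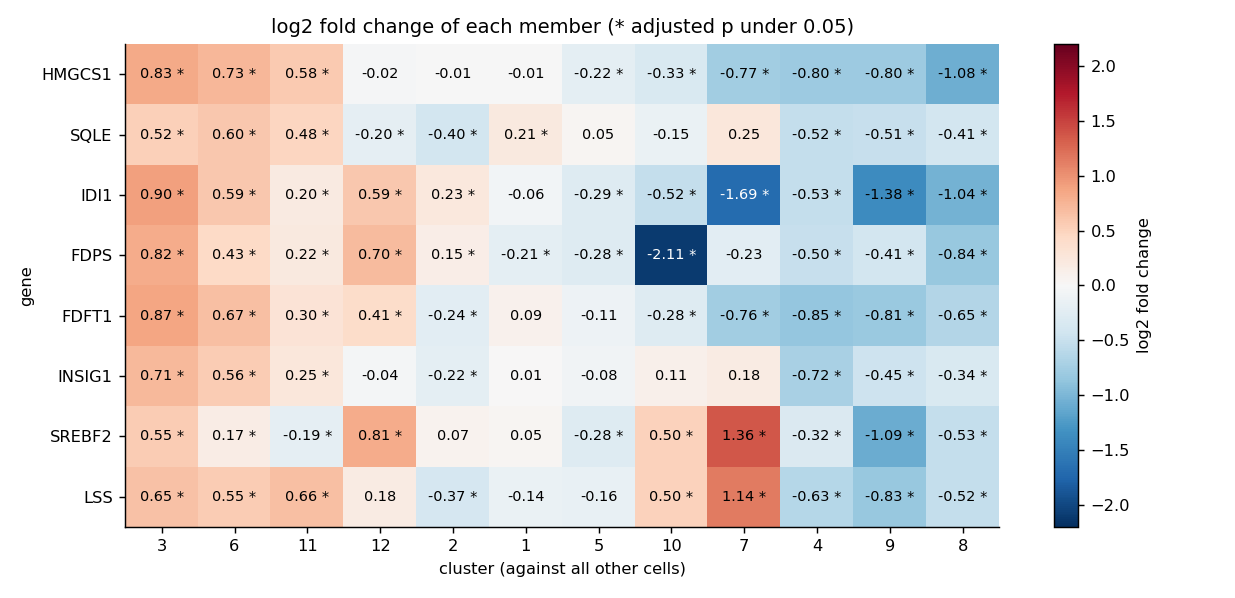
log2 fold change of each member (rows) in clusters 1 to 12 (columns) against all other cells, with an asterisk at an adjusted p under 0.05 by edgeR's quasi-likelihood test. All 8 genes were called higher in clusters 3 and 6 and all 8 lower in clusters 4, 8 and 9.

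Cluster 4 had G2/M genes at 45.0 UMIs per 10000 UMIs for the 12 genes summed, and all 8 cholesterol genes were called lower there, beside 15.3% of the 13115 genes tested. The decreases ran from -0.32 for SREBF2 to -0.85 for FDFT1, with HMGCS1 at -0.80, INSIG1 at -0.72 and a median of -0.58. Adjusted p-values were between 0.000186 and 0.0203 by edgeR's quasi-likelihood test. The other enzymes included 10 of 15 called lower, led by TM7SF2 (-2.44), MVD (-0.74), CYP51A1 (-0.67) and MSMO1 (-0.63). LBR (0.82) and MVK (0.20) were the 2 called higher, with 16.3% of all genes tested, and 1 was called by DESeq2. Cluster 2 had G2/M genes at 45.4 and summed member levels of 9.62 and 9.33, where cluster 4 had 6.35 and 6.27. MYOD1 was at 6.72 in cluster 2 and 2.71 in cluster 4. The part of the G2/M genes in these levels was not tested.

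Cluster 8 had the highest mean level of PAX3, a satellite cell marker, at 0.028, and S phase and G2/M genes at 3.94 and 1.96. All 8 genes were called lower there, beside 23.5% of the 13119 genes tested. HMGCS1 (-1.08 ± 0.0393, SE), IDI1 (-1.04 ± 0.0470) and FDPS (-0.84 ± 0.0443) decreased most. INSIG1 (-0.34) and SQLE (-0.41) decreased least, and the median was -0.59. Of the rest of the list, 13 of 15 enzymes were called lower and 0 higher, beside 22.5% of all genes called higher by edgeR's quasi-likelihood test. TM7SF2 (-2.54), LBR (-1.29) and MVD (-1.11) were among the largest decreases.

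The uptake list went both ways in cluster 8. VLDLR was at 0.472 and 0.521, against 0.066 and 0.0743 in cluster 3, and its log2 fold change in cluster 8 against all other cells was 2.09. In all, 4 of the 9 uptake genes were called higher and 3 lower, beside the 22.5% and 23.5% of all genes. A further list covered efflux, esterification and liver X receptors, and it also held the genes OSBP and OSBPL1A. Of its 8 genes tested, 6 were called higher and 0 lower, among them APOE (1.37), which carries cholesterol out of cells. ABCA1 of this list had 12 UMIs in cluster 8, so these calls are not a measure of efflux alone.

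Cluster 9 carried the fibro-adipogenic markers PDGFRA, at 1.58, and PPARG, at 0.288 UMIs per 10000 UMIs, and had little MYF5 (0.130). The collagen genes of the same marker list were lower there than in cluster 7, with COL1A1 at 24.6 against 147 and COL3A1 at 17.7 against 176. Of the 5 markers, 3 were called higher and 2, both collagens, lower than in all other cells. Of the 12 S phase genes, 10 were called higher there, and their part in the result was not tested. All 8 cholesterol genes were called lower, beside 27.7% of the 13205 genes tested. These calls compare shares of UMIs, and cluster 9 was the deepest cluster, with a median of 23011 UMIs per cell. Counted as UMIs per cell, the 8 genes summed were at 14.3 in cluster 9. This was above clusters 1, 4, 5 and 8 (7.09 to 12.4) and below clusters 2, 3, 6, 11 and 12 (17.7 to 25.8). Among the 8 genes, as a share of UMIs, IDI1 fell most (-1.38 ± 0.08, SE), followed by SREBF2 (-1.09 ± 0.0493), LSS (-0.83), FDFT1 (-0.81) and HMGCS1 (-0.80). FDPS (-0.41), INSIG1 (-0.45) and SQLE (-0.51) fell less, and the median was -0.81. With the other clusters weighted equally, FDPS was not called (-0.10). Adjusted p-values were between 1.5e-05 and 0.00215 by edgeR's quasi-likelihood test. Of the 15 other enzymes, 11 were called lower, including TM7SF2 (-2.82), CYP51A1 (-0.96) and MSMO1 (-0.87), and LBR (0.74) was called higher, as were 25.3% of all genes tested. With the other clusters weighted equally, 3 of these enzymes were called higher.

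Against all other cells, SREBF1 moved the opposite way to the 8 genes in cluster 9. This gene, which encodes the SREBP1 factor of fatty acid synthesis, was at 0.285 and 0.263 UMIs per 10000 UMIs, and was called higher (1.73). Against cluster 7 alone, SREBF1 was called lower in cluster 9 (-0.60), as were 26.6% of all genes in that comparison. In cluster 9 against all other cells, RNF145 (1.49), a ubiquitin ligase of the sterol sensing machinery, and NPC2 (0.98), which hands cholesterol to NPC1 in lysosomes, also rose, whereas VLDLR (-1.39) fell. Of the 9 uptake genes, 3 were called higher and 4 lower, and of the 12 sterol sensing genes outside the members, 4 were called higher and 2 lower, beside 25.3% and 27.7% of all genes. With the other clusters weighted equally, 0 sterol sensing genes and 3 genes of the fatty acid list were lower by edgeR. The fatty acid list, which also held the regulator INSIG2, was split. In it, 4 of 10 genes were higher, among them ACACA (0.96) and FASN (0.52), and 5 lower, among them ACLY (-0.47).

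Cluster 12 was the most differentiated cluster by its markers, with MYOG at 18.6 and the embryonic myosin gene MYH3 at 15.5. Its cholesterol genes did not move together. SREBF2 (0.81 ± 0.0544, SE), FDPS (0.70 ± 0.0475), IDI1 (0.59 ± 0.0540) and FDFT1 (0.41 ± 0.0544) were called higher, which is 4 of 8 beside 24.8% of the 13224 genes tested. SQLE (-0.20) was called lower, beside 29.5% of all genes, and not by DESeq2 or with the other clusters weighted equally. The median of the 8 was 0.30. HMGCS1 (-0.02), INSIG1 (-0.04) and LSS (0.18) were not called, though HMGCS1 was called higher (0.21) with the other clusters weighted equally, and the values of INSIG1 were on opposite sides of 0 in the 2 libraries (-0.30 and 0.19). Without TMM, the fold changes in cluster 12 were shifted by a median of -0.18, and HMGCS1 was then called lower (-0.20).

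TM7SF2 and LBR, which are known to catalyse the same reduction in sterol synthesis, went opposite ways in cluster 12. TM7SF2 was at 2.16 and 2.12 UMIs per 10000 UMIs, against 0.0566 and 0.0393 in cluster 8, and its log2 fold change in cluster 12 against all other cells was 3.68. LBR was at 0.0634 and 0.0463, and in the same comparison its value was -2.63. Among the other 15 enzymes, 3 were called higher and 7 lower, beside 24.8% and 29.5% of all genes, and with the other clusters weighted equally 5 were higher and 4 lower. Of the 9 uptake genes, 2 were called higher, NPC1 (1.70) and VLDLR (0.39), and 5 lower, including LIPA (-1.24), the lysosomal acid lipase. The S phase and G2/M lists were at 2.17 and 2.03 in this cluster, and their part in the result was not tested.

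In the other 5 clusters, from 1 to 4 of the 8 genes were called lower and at most 2 higher. In cluster 1, SQLE was called higher and FDPS lower, which is 1 of 8 each, beside 14.6% and 18.8% of the 13093 genes tested. With the library as a block, 2 were called higher in cluster 1. In cluster 2, FDPS and IDI1 were called higher and SQLE, LSS, FDFT1 and INSIG1 lower, beside 15% and 16.8% of 13143 genes. In cluster 5, HMGCS1, IDI1, FDPS and SREBF2 were called lower and none of the 8 higher by edgeR's quasi-likelihood test, beside 12% in either direction of 13153 genes. With the other clusters weighted equally, cluster 5 had 1 member lower and 1 higher. The values not called in cluster 5 were 0.05 for SQLE, -0.08 for INSIG1, -0.11 for FDFT1 and -0.16 for LSS. Leaving TMM out moved the counts of cluster 1 to 0 higher and 2 lower, and weighting the other clusters equally moved them to 4 higher and 0 lower, with FDPS at 0.09. Leiden clusters made without cholesterol genes also gave 0 lower in cluster 1. In cluster 2, members lower were 2 by DESeq2, with equal weights and in those Leiden clusters.

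In clusters 7 and 10, SREBF2 and LSS were called higher while several enzymes were called lower. In cluster 7, this was 2 higher, SREBF2 (1.36) and LSS (1.14), and 3 lower, IDI1 (-1.69), HMGCS1 (-0.77) and FDFT1 (-0.76), beside 18.3% and 26.4% of 13036 genes. Cluster 7 was shallow, with 8.47% of its UMIs from ribosomal protein genes, where the other clusters had 20.6% or more. Without TMM its values were shifted by a median of 0.65, and 5 were called higher and 1 lower. The share of all genes called in that setting was not computed. With the other clusters weighted equally, 4 were higher. In cluster 10, SREBF2 and LSS (0.50 each) were called higher, and FDPS (-2.11), IDI1 (-0.52), HMGCS1 (-0.33) and FDFT1 (-0.28) lower, beside 16.7% and 21.9% of 13145 genes. The part of depth and of ribosomal protein RNA in these values was not tested. In clusters 13 to 15, which held 602, 446 and 317 cells, only levels are given.

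Among the lineage paths that the study proposes as possible, 1 runs from PAX3-expressing cells (cluster 8) to MYF5-expressing myoblasts (cluster 1). It continues to the myogenin clusters 3 and 12, and neighbours on this path were compared directly. MYF5 did not separate clusters 8 and 1, with mean levels of 1.57 and 1.55 (log2 fold change 0.02, not called). PAX3 (-1.06) was not called either, with 47 UMIs in cluster 8 and 44 in cluster 1, nor was PAX7 (-0.24). MYOG (3.06), MYOD1 (2.57), DES (2.40), MYMK (3.36) and MYH3 (2.47) were called higher in cluster 1. From cluster 8 to cluster 1, 7 of the 8 genes were called higher, beside 17.2% of the 11194 genes tested. HMGCS1 had the largest difference (1.03 ± 0.0466, SE), followed by IDI1 (0.96) and FDFT1 (0.71). LSS (0.38) was not called, with an adjusted p of 0.0981 by edgeR's quasi-likelihood test, and was called with the library as a block (adjusted p = 0.0148, edgeR). Among the other 15 enzymes, 12 were called higher and 0 lower by edgeR's quasi-likelihood test, beside 16.9% of all genes called lower.

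From cluster 1 to cluster 3, all 8 genes were called higher, beside 21.1% of the 11362 genes tested. FDPS (0.88 ± 0.0452, SE), IDI1 (0.81 ± 0.0455) and HMGCS1 (0.71 ± 0.0447) increased most and SQLE (0.25 ± 0.0538) least. HMGCS1 went from 3.29 and 3.35 to 5.37 and 5.21 UMIs per 10000 UMIs, and FDPS from 1.53 and 1.59 to 2.80 and 2.78. Of the 15 other enzymes, 12 were called higher, with TM7SF2 (1.47), MVD (0.75) and DHCR7 (0.75) among the largest, and 0 lower by edgeR's quasi-likelihood test, or 1 lower with the library as a block, beside 19.1% of all genes. The summed S phase level was 4.19 in cluster 1 and 4.14 in cluster 3, with 2 of the 12 genes called higher and 3 lower.

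From cluster 3 to cluster 12, 5 of the 8 genes were called lower, beside 15.6% of the 10811 genes tested. HMGCS1 (-0.69 ± 0.0487, SE), INSIG1 (-0.61 ± 0.173) and SQLE (-0.60 ± 0.0618) decreased most, and FDFT1 (-0.31) and IDI1 (-0.17) less. HMGCS1 was at 3.01 and 3.12 UMIs per 10000 UMIs in cluster 12, and at 3.29 and 3.35 in cluster 1. As UMIs per cell the order was reversed, at 6.07 in cluster 12 and 4.5 in cluster 1. Clusters 12 and 1 were not compared by a test. SREBF2 was called higher (0.33), as were 18.2% of all genes tested, and FDPS (0.01) was not called. LSS (-0.34) was not called, with an adjusted p of 0.0529 by edgeR's quasi-likelihood test, and was called with the library as a block (adjusted p = 0.0133, edgeR). Of the 15 other enzymes, 9 were called lower, including ACAT2 (-0.83), HSD17B7 (-0.74) and LBR (-1.20), and TM7SF2 (1.90) was called higher.

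**Figure D3:**
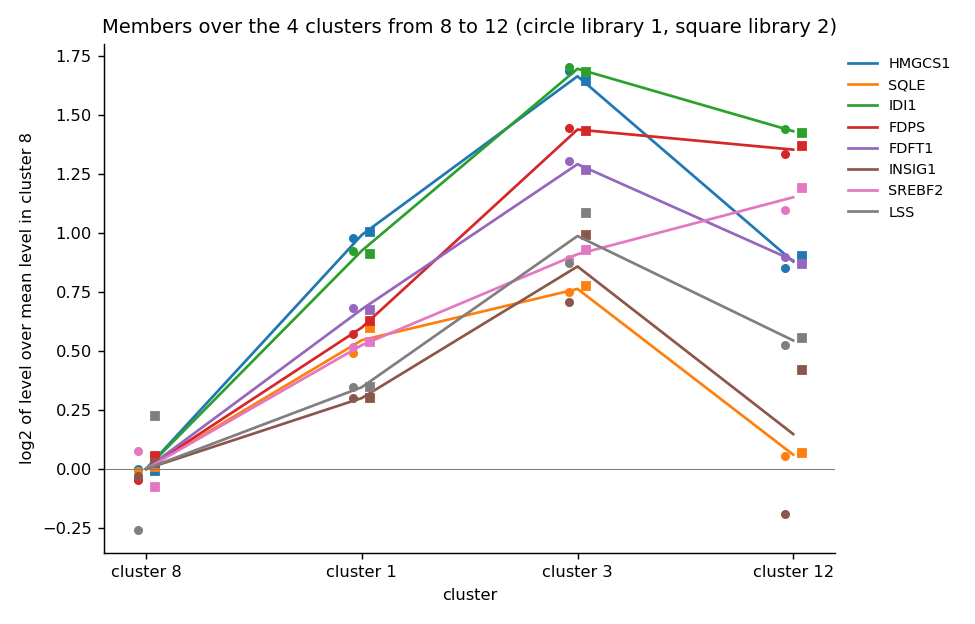
Level of each member in clusters 8, 1, 3 and 12, as the log2 of its ratio to its mean level in cluster 8 (circles library 1, squares library 2, lines the mean). All 8 were higher in cluster 3 than in cluster 1, and SREBF2 was the member called higher again in cluster 12 than in cluster 3.

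Clusters 9 and 7, which the study calls fibro-adipogenic, were compared directly, and 4 of the 8 genes were called, all lower in cluster 9. Over all genes tested, 26.6% were called lower and 29.9% higher, so being called was not particular to these genes. Summed over the myogenic markers, the mean level was 15.8 in cluster 7 and 1.99 in cluster 9. MYMK (-4.86), MYH3 (-4.73), MYOG (-2.23) and DES (-2.12) were called lower in cluster 9. PDGFRA (0.58), PPARG (2.19) and ZNF423 (0.83) were called higher there. The cluster 7 values rest on few UMIs, 111 for LSS and 89 for INSIG1, at a median of 1389 UMIs per cell. The part of myogenic RNA and of depth in this comparison was not tested. SREBF2 (-2.45), LSS (-1.99), SQLE (-0.82) and INSIG1 (-0.69) were called lower in cluster 9 and none of the 8 higher by edgeR's quasi-likelihood test, beside 26.6% lower and 29.9% higher of the 10785 genes tested. Without TMM, values in this comparison were shifted by a median of -0.51, and 7 of the 8 were called lower. The share of all genes called without TMM was not computed, so this count has no background beside it. HMGCS1 (-0.09), FDFT1 (-0.10), FDPS (-0.25) and IDI1 (0.28) were not called.

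Single cells within a cluster differed widely in these genes. When each cell was thinned to 5000 UMIs, which left out 3100 shallower cells, the median cell of cluster 3 had 6 UMIs of the 8 genes summed, with a 10th percentile of 2 and a 90th percentile of 13. In cluster 8 the median was 2 and the 90th percentile 6, and 244 of 1233 cells had none. The variance of the sum was 2.22 to 4.23 times its mean over 11 clusters. Sampling of independent molecules from cells of equal level would give a ratio near 1. No such ratio is given here for other genes, so it does not show that these genes varied more than others. The ratio was highest in cluster 9, in which cells reached 38 UMIs at a mean of 3.02. Scrublet called 13.7% of the cells of cluster 9 doublets. These were kept, and their part in the spread was not tested.

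**Figure D4:**
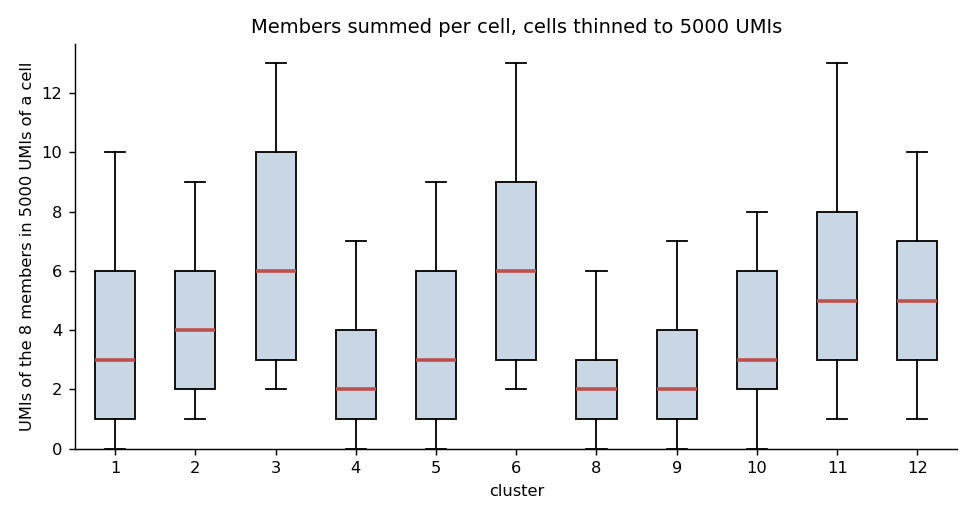
UMIs of the 8 members summed in single cells thinned to 5000 UMIs, for the 11 clusters with at least 100 such cells. The line is the median, the box the 25th to 75th percentile and the whiskers the 10th to 90th. The median was 6 in clusters 3 and 6 and 2 in clusters 4, 8 and 9.

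HMGCS1 was detected in 78.5% of thinned cells of cluster 3 (95% exact binomial interval 76.7% to 80.3%), 79.6% of cluster 6 (77.5% to 81.6%) and 43.6% of cluster 8 (40.8% to 46.5%). Unthinned, these shares were 94.7%, 96.2% and 68.7%. IDI1 was detected in 59.6% of thinned cells of cluster 3, 23.8% of cluster 8 and 19.0% of cluster 9, and in 89.7%, 46.5% and 55.2% of the same clusters unthinned. The intervals cover counting error only. All cells are known to use this pathway, so no cluster could serve as a background for free RNA.

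The 8 genes varied together from cell to cell inside clusters. Correlations were computed across cells of 1 cluster and 1 library after thinning to 5000 UMIs, on log2(1 + UMIs per 10000), and averaged over 11 clusters and both libraries (15906 cells). All 28 pairs of members had a mean correlation above 0, with a median of 0.091, while the median of members with other genes was 0.001. The highest was 0.275 for HMGCS1 and FDFT1 and the lowest 0.007. HMGCS1 had a correlation of 0.411 with the other 7 summed, and ranged from 0.302 to 0.531 over clusters and libraries. IDI1 (0.275), FDFT1 (0.263), SQLE (0.250) and FDPS (0.246) followed, and INSIG1 (0.151), SREBF2 (0.110) and LSS (0.105) were lowest. Cells thinned to 10000 UMIs gave higher values, with 0.561 for HMGCS1 and a median of 0.152 over pairs.

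Among 5251 ranked genes with at least 0.1 UMI per thinned cell, those outside the members with the highest mean correlation with the summed members were mostly from the same pathway. MSMO1 (0.309), CYP51A1 (0.244), ACAT2 (0.188), MVD (0.172), DHCR7 (0.148) and NSDHL (0.145) are synthesis enzymes. SCD (0.195) desaturates fatty acids, ACLY (0.138) supplies acetyl-CoA and FABP3 (0.206) binds fatty acids. TM7SF2 (0.032) and LBR (0.006) ranked 195 and 2038. RRM2 (0.047), the highest of the S phase genes, ranked 71, and the markers MYOD1 (0.035) and MYOG (0.030) ranked 160 and 231. COL1A1, a collagen gene, was at the bottom of the ranking (-0.153). These values share cells, depth and library between genes, and are descriptions with no test.

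**Figure D5:**
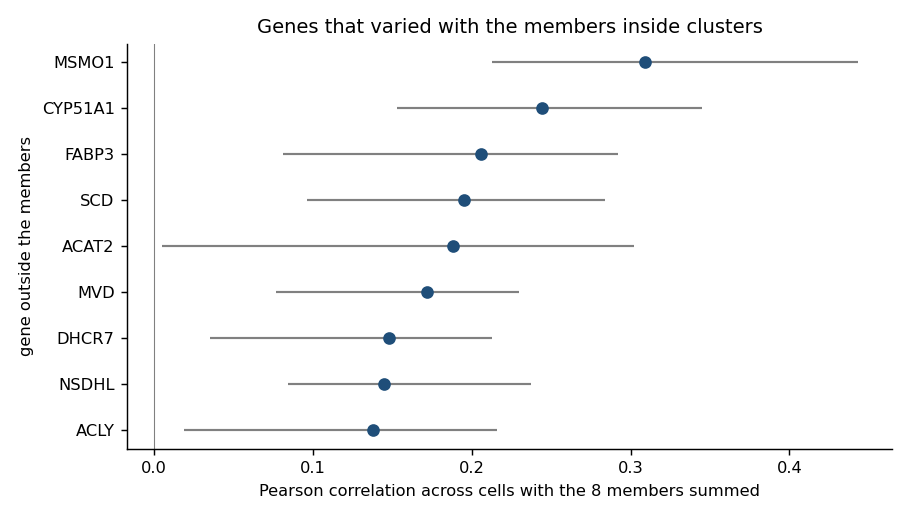
Mean Pearson correlation with the 8 members summed for 9 of the 10 highest-ranked genes outside the members, across cells thinned to 5000 UMIs inside clusters. Points are the mean over 11 clusters and both libraries, and lines run from the lowest to the highest cluster and library. MSMO1 was highest (0.309, from 0.213 to 0.443).

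Across the 15 clusters, the genes outside the members whose log2 level was most like that of the summed members, of 2914 genes with at least 0.5 UMIs per 10000 UMIs, were MSMO1 (Pearson r = 0.918), MVD (0.886), NMD3 (0.858), CYP51A1 (0.814), MNAT1 (0.797), TUBA4A (0.786), SRSF5 (0.746), RTN3 (0.729), NAA15 (0.726) and UBAP2L (0.722). Over the 10 clusters with a median of at least 10000 UMIs per cell, MSMO1 (0.965) was again highest, followed by TEX2 (0.961) and MVD (0.953).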

How the data were processed

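The authors aligned 10x Genomics 3′ reads to ARS-UCD1.2, counted UMIs and called cells with Cell Ranger 3.0.2, and combined both libraries at equal mapped reads per cell. As deposited, the counts are whole UMIs for 21867 genes in 19096 cells. The deposited cluster averages, a score scaled by the authors to a common total, served only to deduce the cluster of each cell, and all 19096 cells were placed with 0 differences from the averages. The authors' fold changes and p-values were not used. UMIs were summed per library and cluster, and tested with edgeR 4.0.16 (glmQLFit, TMM, filterByExpr, Benjamini-Hochberg adjustment). DESeq2 1.42.0, Scrublet in scanpy 1.11.5 with an expected doublet rate of 8.0%, and Leiden clustering without the cholesterol genes gave alternatives. Doublets, 582 in library 1 and 760 in library 2, were kept in the main values.

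The members and gene lists were chosen with earlier results of these data known. Named were all members, up to 4 called genes per list and direction with the largest change and the same direction in both libraries, and the 10 genes most like the members. CH25H had no row under its symbol. Some genes that this rule names are not reported here, and stay in the counts of their lists. Sums of a cluster and its comparison share libraries, which pairs them, and over genes with at least 20 UMIs the log2 library ratios of a cluster and of all other cells correlated at 0.167 to 0.669 in the 15 clusters. Promoter and protein sequences were not used here.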

Additional observations from a re-analysis of the deposited data

How the results depend on the processing

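Of 526 counts and levels recomputed under an alternative, 487 stayed within 1.5 times the value reported or within the library spread, and of 1416 single fold changes, 1321 kept their direction and side of the threshold, 43 lost the call, 24 gained it and 28 changed sign. With 1 library at a time, 84 of 358 single fold changes moved by more than the SD between libraries, and 0 values that had been called changed sign. That SD was taken from the same 2 single-library values, so most of them fall within it by construction. The count of 84 therefore says little about how well the libraries match. Of the 28, the values reported had been called only for SREBF2 and TM7SF2 in cluster 6 and FDPS in cluster 1. In clusters 3 and 4 all 8 members kept their call under every alternative run, while INSIG1 in cluster 8 lost it under clustering without cholesterol genes (-0.24) and FDPS in cluster 9 with clusters weighted equally (-0.10). Unless a value shows it, the cause was not tested. Shares of all genes called were computed for the main fit only, so counts under an alternative have no such share beside them.

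With the library as a replicate block, members higher in cluster 1 went from 1 to 2, and other synthesis enzymes lower from 1 to 2 in cluster 3 and from 0 to 1 in cluster 3 against cluster 1; no other count printed here moved by over 1.5 times.

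Without TMM, cluster 11 had 0 members lower, clusters 12 and 1 had 2 each, cluster 7 had 1, and the comparison of cluster 9 with cluster 7 had 7. Members higher numbered 0 in cluster 1 and 5 in cluster 7. Other enzymes lower in cluster 3 were 2 and uptake genes higher in cluster 12 were 1. Signs turned for INSIG1 (-0.07) and SREBF2 (-0.03) in cluster 1, HMGCS1 in cluster 2 (0.003), FDPS in cluster 7 (0.42), LSS in cluster 12 (-0.003), FDPS in cluster 12 against cluster 3 (-0.09) and IDI1 in cluster 9 against cluster 7 (-0.23).

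DESeq2 gave 0 members lower in cluster 12 and 2 in cluster 2, and 1 other enzyme higher in cluster 4. In cluster 9, it gave 1 sterol sensing gene and 3 genes of the fatty acid list lower. HMGCS1 in clusters 2 (0.002) and 12 (0.02) and INSIG1 in cluster 12 (0.002) turned.

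Leiden clusters made without cholesterol genes matched 11 of the 15 clusters, so clusters 5 and 11 gave no value there. A match needed a Jaccard index of at least 0.3. The index ran from 0.389 for cluster 6 to 0.968 for cluster 9, so matched clusters held partly different cells. Members lower were 0 in cluster 1, 2 in cluster 2 and 7 in cluster 9 against cluster 7, and 1 other enzyme was lower in cluster 1 against cluster 8. INSIG1 in clusters 1 (-0.07) and 10 (-0.05), HMGCS1 in cluster 2 (0.08), SREBF2 in cluster 6 (-0.06) and FDPS in cluster 12 against cluster 3 (-0.002) turned.

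With clusters weighted equally in 1 fit of 30 sums, clusters 1 and 7 each had 4 members higher and cluster 5 had 1, and 0 members were lower in clusters 1 and 12, 2 in cluster 2 and 1 in cluster 5. Other enzymes higher were 5 in cluster 12 and 3 in cluster 9, and lower 4 in cluster 12 and 0 in cluster 6. In cluster 9, 0 sterol sensing genes and 3 genes of the fatty acid list were lower. HMGCS1 in clusters 1 (0.21), 2 (0.19) and 12 (0.21), IDI1 (0.24) and FDPS (0.09) in cluster 1, FDFT1 in cluster 5 (0.08), FDPS in cluster 7 (0.20), TM7SF2 in cluster 6 (0.27) and FDPS in cluster 12 against cluster 3 (-0.003) turned.

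Without a filter on low counts, 1 member was higher in cluster 9 against cluster 7, and INSIG1 in cluster 1 (-0.01), FDPS in cluster 12 against cluster 3 (-0.02), and HMGCS1 (0.04) and FDFT1 (0.03) in cluster 9 against cluster 7 turned. With doublets left out, 1 other enzyme was lower in cluster 3 against cluster 1.

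The summed level of cluster 3 over cluster 8, 2.66, was 3.39 as mean UMIs per cell, 2.77 in cells thinned to 5000 UMIs and 2.68 at 10000 UMIs, a depth added after seeing the data, and 2.61 to 2.70 in single libraries. The median member correlation rose from 0.091 to 0.152 in cells thinned to 10000 UMIs. Depth limits clusters 7, 13, 14 and 15 most. The planned promoter motif search was not run.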
